A study of Mus musculus with 4 samples.

Results

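The genes described here are the mouse aminoacyl-tRNA synthetase genes of the cytosol and of mitochondria, together with Aimp1 and Aimp2, scaffold proteins that help to hold several of the cytosolic enzymes in one complex. The gene symbol alone set which genes belong, and 40 of the 12486 genes in the count table matched. The list itself was chosen with earlier results of these data known. All 40 passed the filter on low counts, as did 11853 of the 12486 genes overall.

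Aminoacyl-tRNA synthetases attach each amino acid to its own tRNA and so supply the ribosome with charged tRNA. Most cells carry separate nuclear genes for the cytosolic and the mitochondrial enzyme of an amino acid, and the mitochondrial proteins are imported to serve translation of the few proteins encoded in mitochondrial DNA. Many cytosolic enzymes sit in the multi-synthetase complex, whereas others work alone. Gars and Kars give both a cytosolic and a mitochondrial protein from one gene, and Eprs is a fusion that charges both glutamate and proline tRNA.

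Transcription was measured with PRO-seq, in which nuclei extend their nascent RNA briefly in vitro and the 3′ end of each RNA marks an engaged polymerase. The cells were feeder-free diploid mouse embryonic stem cells of a line derived from the haploid line HMSc2. In every library they carried an auxin-inducible degron at the N terminus of Zfp574, a zinc-finger protein, and the plant F-box protein OsTir1, which marks the degron for destruction when the auxin indole-3-acetic acid (IAA) is present. OsTir1 was expressed from an EF1alpha promoter in a clonal parental line, the tagged cells were genotyped as individual clones, and the labels name only 1 tagged line. The 2 control libraries came from AID-Zfp574 cells with the treatment label 0h_control_IAA. The methods describe no treatment for the controls, and they were taken as untreated here. The 2 depletion libraries came from AID-Zfp574 cells after 6 h in 500 μM IAA. The control cells therefore share the tag and OsTir1, and no library came from cells that lacked the degron but received IAA, so an effect of IAA itself cannot be told apart from loss of Zfp574.

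The control libraries held 3298864 and 3616429 counts and the depletion libraries 6045216 and 5670904. The methods call the replicates biological, and p-values here measure only the spread between these 4 libraries. Stem cell markers summed to between 4093 and 4239 CPM (counts scaled to 1000000 per library) in the 4 libraries, with 7 of 8 listed markers in the table, whereas the fibroblast list reached at most 2.18 CPM with 1 of 4 markers in the table. The neural list, with 3 of 3 markers in the table, summed to 66.4 and 72.1 CPM without IAA and 79.8 and 78.8 with it, and its part in the results was not tested. Zfp574 itself had 80 and 130 counts without IAA and 195 and 219 with it (log2 fold change 0.25, adjusted p = 0.406), which is no check of the labels because the degron acts on the protein. In pooled nuclei, fewer transcribing cells and less transcription per cell cannot be told apart.

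Of the 40 genes, Pars2 was the only one called lower at 2-fold or more and Lars2 the only one called higher at any size. Both encode mitochondrial enzymes, and the calls used edgeR's quasi-likelihood test with a Benjamini-Hochberg adjusted p under 0.05. Across all 11853 genes tested, 38 (0.321%) were lower at 2-fold and 0 (0.00%) were higher at 2-fold, and the synthetase genes gave 1 and 0. Without a fold threshold 166 genes (1.40%) were lower and 132 (1.11%) higher, and the synthetase genes gave 1 of each. That split depended on the scaling: it was 199 lower and 64 higher with library totals, and 698 lower and 49 higher with the size factors recovered from the deposited table. Those factors were 0.699 and 0.740 for the control and 1.32 and 1.24 for the depletion libraries. The methods describe 1 spike-in factor shared by the replicates of a condition, which these are not, and their origin is not known here. At an unadjusted p under 0.05 there were 5 synthetase genes (Pars2, Lars2, Hars2, Aars2 and Mars1), beside 1919 of the 11853.

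**Figure D1:**
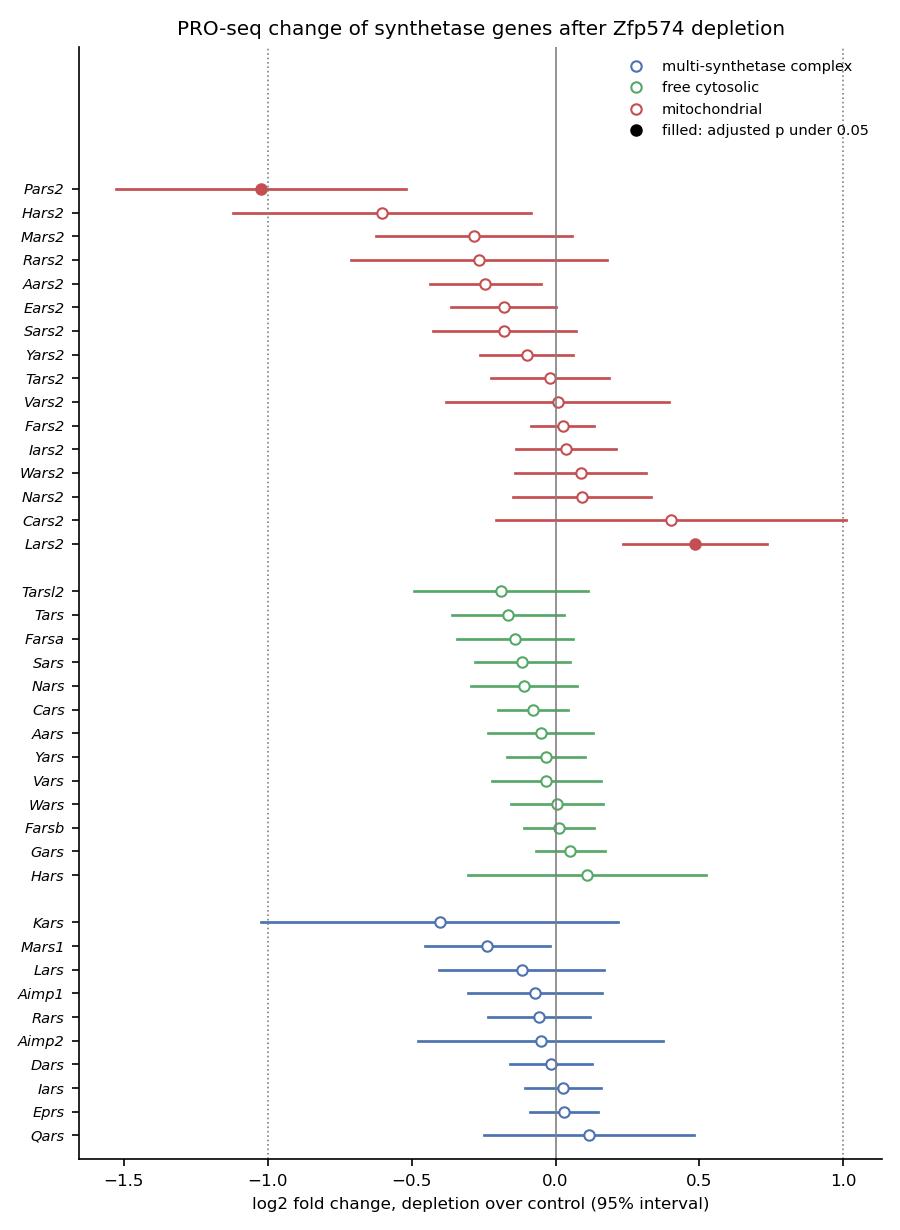
Log2 fold change of PRO-seq counts, depletion over control, for 39 of the 40 synthetase and Aimp genes in 3 groups, with points for the estimate and bars for its 95% interval from edgeR. Filled points passed the test at an adjusted p under 0.05 (Pars2 and Lars2), and dotted lines mark a 2-fold change. Intervals of 35 of the 39 genes lie inside the dotted lines.

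Pars2 encodes the mitochondrial prolyl-tRNA synthetase. It lies at chr4:106651069-106655282 of mm10 on the plus strand, and with 4214 bases it was the shortest of the 40 genes. The control libraries gave it 45 and 35 counts, and the depletion libraries, which were sequenced more deeply, 29 and 36. As CPM these came to 13.5 and 9.55 without IAA against 4.87 and 6.41 with it. Both depletion libraries thus lay below both controls. The mean was 11.5 ± 2.8 CPM in the controls and 5.64 ± 1.1 after depletion (SD, n = 2 each).

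The log2 fold change of Pars2 was -1.02 ± 0.25 (SE, edgeR, adjusted p = 0.0193), with a 95% interval from -1.53 to -0.52. The estimate thus sat at the 2-fold threshold, and the interval covered both smaller and larger falls. The call rested on few counts. In fits with 1 library left out, here and for the genes below, the group left with a lone library is assumed to vary like the other group: the value was -0.76 without control replicate 1 (adjusted p = 0.244) and -0.83 without depletion replicate 1 (adjusted p = 0.229), against -1.26 without control replicate 2 and -1.23 without depletion replicate 2. DESeq2 gave a fold change of the same size, -1.03, with an adjusted p of 0.684. A correction for gene length left it at -0.98 (adjusted p = 0.0278), just inside the threshold.

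The gene nearest to Pars2 in the table, Ttc4, faces it from 6974 bases away on the other strand. It had 80 and 71 counts without IAA and 144 and 120 with it, a log2 fold change of 0.08 ± 0.15 (adjusted p = 0.862). In the cytosol proline tRNA is charged by Eprs, a subunit of the multi-synthetase complex. Eprs had 915 and 956 counts without IAA and 1642 and 1523 with it. Its log2 fold change was 0.03 ± 0.06, and its interval from -0.09 to 0.15 did not meet that of Pars2.

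Lars2 encodes the mitochondrial leucyl-tRNA synthetase, at chr9:123366927-123462666 on the plus strand. It had 21536 and 13175 counts without IAA and 44584 and 36989 with it. In CPM the controls stood at 6472 and 3596 and the depletion libraries at 7490 and 6583. All depletion values were above all control values, but the control libraries differed from each other by 1.8-fold, more than the group means, which differed by 1.40-fold. The log2 fold change was 0.48 ± 0.12 (SE, edgeR, adjusted p = 0.0262).

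The size of the Lars2 difference followed the control library used. Leaving out control replicate 1 gave 0.97 and leaving out control replicate 2 gave 0.12. Without depletion replicate 1 it was 0.39 and without depletion replicate 2 it was 0.57, and the call was lost in both (adjusted p = 0.342 and 0.114). The spread in those fits came from the 2 control libraries, 1.8-fold apart. It was also lost with library totals in place of TMM scaling (0.45, adjusted p = 0.0554), with DESeq2 (0.49, adjusted p = 0.999), with the length correction (0.38, adjusted p = 0.105) and when genes with a mean count under 100 were left out (0.47, adjusted p = 0.0553), at values close to the 0.48 above except with the length correction.

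**Figure D2:**
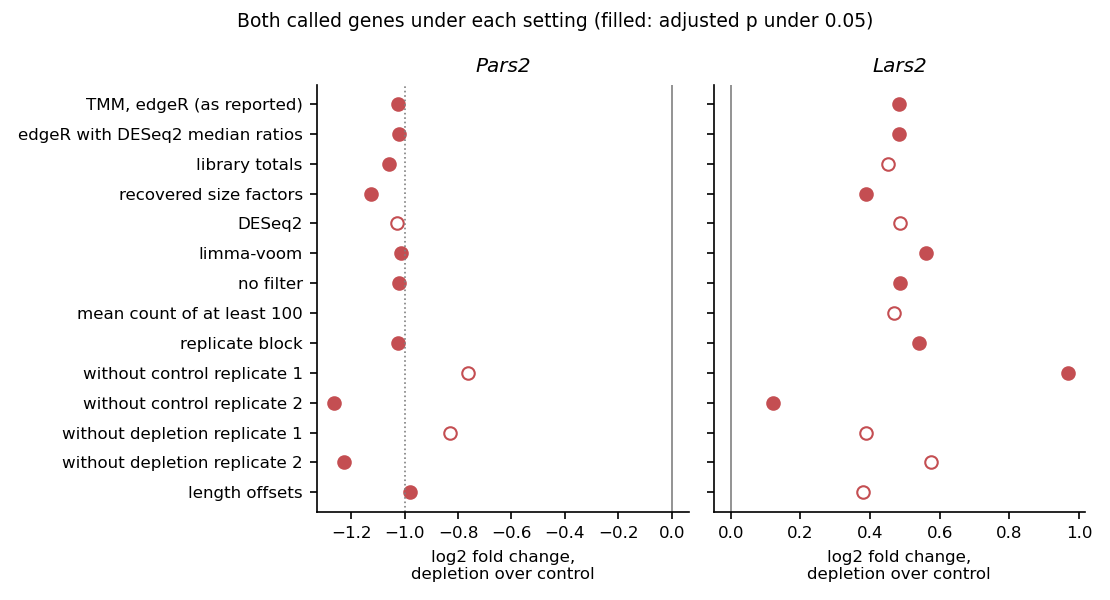
Log2 fold change of Pars2 (left) and Lars2 (right), depletion over control, under each scaling, test, filter and set of libraries. Filled points have an adjusted p under 0.05 and the dotted line marks a 2-fold fall. Pars2 ranged from -1.26 to -0.76 and Lars2 from 0.12 to 0.97.

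Counts of Lars2 were also far above those of the other synthetase genes. It ranked 2 of the 11853 genes by mean CPM in the controls and took 0.653% and 0.364% of all control counts and 0.738% and 0.652% of all depletion counts. Per kilobase of gene its control density was 52.6 CPM, 18.9 times the median of the 40 genes. The last exon of Lars2 (chr9:123461499-123462664, 1166 bases) has a stretch of 398 bases, from 123461792 to 123462189, that resembles 18 other places on the nuclear chromosomes of mm10. Matches to the mitochondrial genome or to sequences not placed on a chromosome were left out of this count. The 18 matches were 83 to 244 bases long with 82.2% to 98.8% identity, and the stretch lies in the 3′ untranslated part of the gene, annotated from 123461676 to 123462664.

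One of these places, on the same strand, is inside Gm15564, a noncoding gene annotated antisense to Kpna1. The match spans 167 bases at chr16:35981655-35981821 with 97.6% identity. Gm15564 had 3162 and 2728 counts without IAA and 7392 and 6263 with it. It rose by a log2 fold change of 0.48 ± 0.07 (adjusted p = 4.22e-05), an estimate that equals the one of Lars2 to 2 decimals, and here too both depletion libraries were above both controls. For each count of Gm15564, Lars2 had 6.81 and 4.83 without IAA and 6.03 and 5.91 with it.

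Among matches wholly inside a gene of the count table, the other same-strand ones lie in Gphn, Wdr92 and Zfp185. Their log2 fold changes were 0.18, 0.27 and 0.03, and none passed the test (adjusted p = 0.168, 0.455 and 0.887). Only reads with a single best position were counted, so reads that fit several of these places equally were dropped. The table gives 1 count per gene, and the part of the shared stretch in the counts of Lars2 was not tested.

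**Figure D3:**
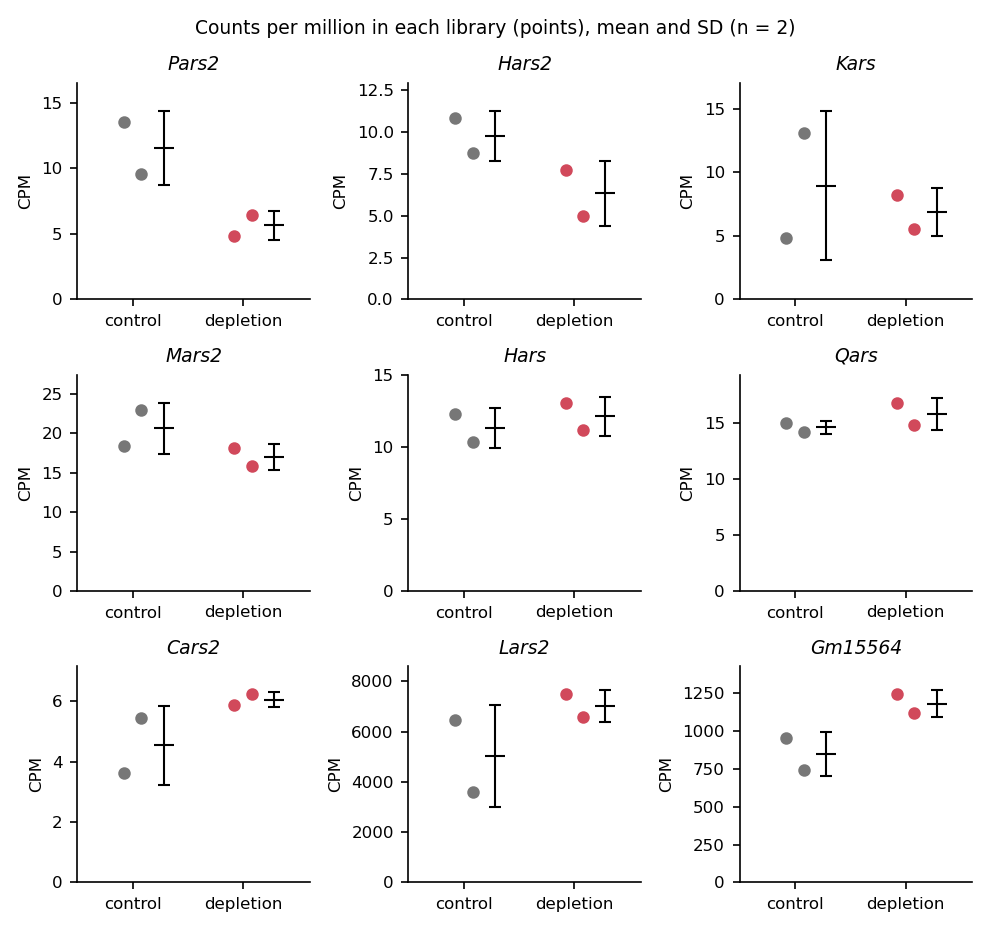
CPM in each library for the 8 synthetase genes described in full and for Gm15564, with control points in grey and depletion points in red. Dashes and bars beside the points give the mean and SD of the 2 libraries, and every axis starts at 0. The groups separate at Pars2, Hars2, Mars2, Cars2, Lars2 and Gm15564, and overlap at Kars, Hars and Qars.

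The other 15 mitochondrial genes gave no call. Hars2, the mitochondrial histidyl-tRNA synthetase, had 36 and 32 counts without IAA and 46 and 28 with it, or 10.8 and 8.73 CPM against 7.73 and 4.98 CPM. Both depletion libraries were below both controls. The log2 fold change was -0.60 ± 0.25 (edgeR, adjusted p = 0.222), and its interval from -1.12 to -0.09 reached past 2-fold. Dropping depletion replicate 1 gave -0.96 and dropping depletion replicate 2 gave -0.33.

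Mars2, the mitochondrial methionyl enzyme, had 61 and 84 counts without IAA and 108 and 89 with it, or 18.3 and 22.9 against 18.1 and 15.8 CPM. The groups were barely apart, at a log2 fold change of -0.28 ± 0.17 (adjusted p = 0.423). Leaving out control replicate 1 gave -0.43 and leaving out control replicate 2 gave -0.11. Cars2, the mitochondrial cysteinyl enzyme, lay on the other side with 12 and 20 against 35 and 35 counts. That is 3.61 and 5.46 against 5.88 and 6.23 CPM, with the groups apart and a log2 fold change of 0.40 ± 0.30 (adjusted p = 0.546). Its interval, from -0.21 to 1.01, was among the widest, and the value ran from 0.15 when control replicate 1 was dropped to 0.74 when control replicate 2 was.

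Aars2, the mitochondrial alanyl enzyme, had higher counts, 229 and 259 without IAA and 365 and 317 with it. In CPM, 68.8 and 70.7 stood against 61.3 and 56.4, so the groups were apart, at a log2 fold change of -0.24 ± 0.09 with an unadjusted p of 0.0148 (adjusted p = 0.179). The remaining 11 mitochondrial genes lay between -0.27 for Rars2 and 0.09 for Nars2. Fars2, the mitochondrial phenylalanyl enzyme and with 608869 bases the longest of the 40 genes, had the smallest error of them. Its log2 fold change of 0.02 ± 0.05 had an interval from -0.09 to 0.13.

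Of the multi-synthetase complex, the 40 genes included 8 enzymes and the scaffolds Aimp1 and Aimp2, and none of these 10 genes passed the test. Their median log2 fold change was -0.05, with 7 of 10 below 0. Kars, the lysyl enzyme, had 16 and 48 counts without IAA and 49 and 31 with it, or 4.81 and 13.1 against 8.23 and 5.52 CPM. The control libraries were further apart than the groups and enclosed both depletion values. The log2 fold change was -0.40 ± 0.30 (edgeR, adjusted p = 0.553), and it turned from -0.92 without control replicate 1 (adjusted p = 0.0434) to 0.52 without control replicate 2 (adjusted p = 0.554).

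Mars1, the methionyl enzyme of the complex, had 236 and 208 counts without IAA and 306 and 318 with it. At 70.9 and 56.8 against 51.4 and 56.6 CPM the groups were apart by a narrow margin, with a log2 fold change of -0.24 ± 0.11 and an unadjusted p of 0.0337 (adjusted p = 0.257). Qars, the glutaminyl enzyme, was the highest of the complex at 0.12 ± 0.18 (adjusted p = 0.813). It had 50 and 52 counts without IAA and 100 and 83 with it, and its CPM of 15.03 and 14.2 against 16.8 and 14.8 overlapped. The scaffold genes Aimp1 and Aimp2 had log2 fold changes of -0.07 and -0.05, and the other 5 enzymes lay between -0.12 for Lars and 0.03 for Eprs.

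The 13 free cytosolic genes showed the narrowest range. Their log2 fold changes ran from -0.19 for Tarsl2, a second cytosolic threonyl enzyme, to 0.11 for Hars. All 13 intervals lay within 2-fold and within 1.5-fold, beside 11028 and 8749 of the 11853 genes tested. Their median control CPM was also the highest, at 87.5 against 54.2 for the complex and 41.8 for the mitochondrial genes. The part of depth in the narrow range was not tested. Hars, the cytosolic histidyl enzyme, had 41 and 38 counts without IAA and 78 and 63 with it. Its CPM of 12.3 and 10.4 against 13.1 and 11.2 overlapped, with a log2 fold change of 0.11 ± 0.20 (adjusted p = 0.853). Farsa and Farsb, the subunits of the cytosolic phenylalanyl enzyme, were at -0.14 and 0.01.

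Read against the whole table, the list moved little. The 40 log2 fold changes had a median of -0.05, with 26 below 0 and 14 above, beside a median of -0.002 over all 11853 genes. TMM scaling itself centres the whole table near 0, so these medians cannot show a change shared by all genes. At 12 of the 40 the depletion pair of libraries lay wholly below the control pair, and at 4 wholly above it. Among the 11853 genes tested these arrangements were found at 22.9% and 23.4%. The interval lay within 2-fold for 36 of the 40 genes, beside 93.0% of all genes tested. It lay within 1.5-fold for 33 of the 40, beside 8749 of the 11853. The 4 genes whose intervals reached past 2-fold were Pars2, Hars2, Kars and Cars2, all with fewer than 50 counts in each library.

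Since cytosolic and mitochondrial translation draw on separate enzymes, the genes were also set side by side by amino acid. This gave 17 pairs, with Eprs in the pairs for both glutamate and proline and Farsa standing for the cytosolic phenylalanyl enzyme. The mitochondrial gene had the lower log2 fold change in 8 of the 17 pairs, and the median difference, mitochondrial minus cytosolic, was 0.01. The ends of this range were Eprs and Pars2, with a difference of -1.05, and Lars and Lars2, with 0.60. Next to these were Hars and Hars2 at -0.71 and Cars and Cars2 at 0.48. The difference was at most 0.21 in size in the other 13 pairs, none of which held a called gene.

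**Figure D4:**
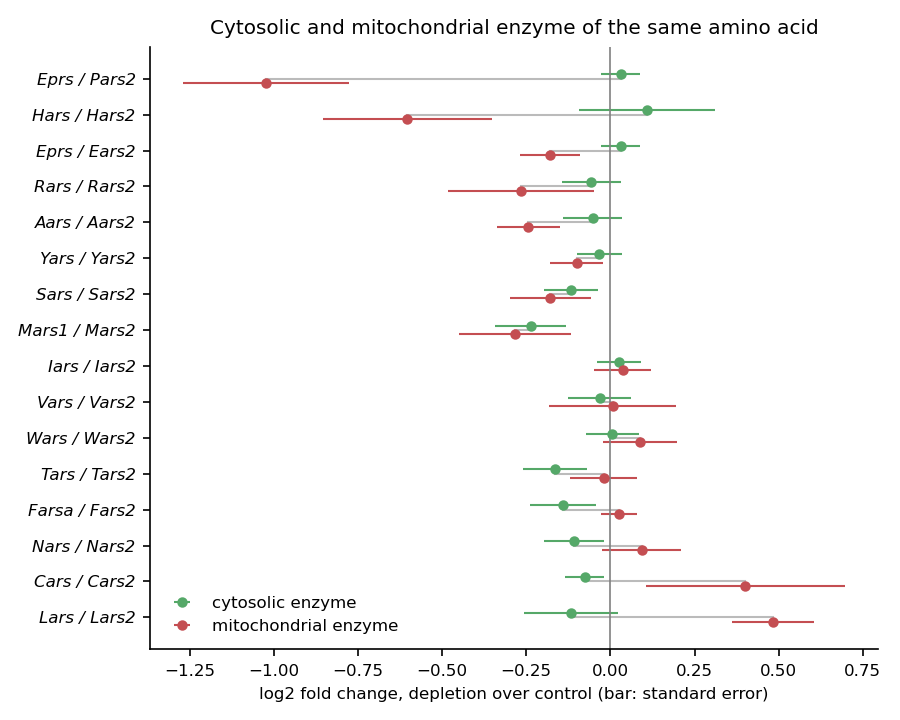
Log2 fold change, depletion over control, of the cytosolic (green) and the mitochondrial (red) enzyme gene for 16 of the 17 pairs, ordered by the difference, with bars for the standard error. The widest gaps are at Eprs and Pars2 (-1.05), Hars and Hars2 (-0.71) and Lars and Lars2 (0.60).

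Per kilobase of annotated gene, the 40 genes had a median control density of 2.78 CPM, beside 1.52 CPM over all genes tested. Lars2 was highest at 52.6 CPM per kilobase and Yars2, the mitochondrial tyrosyl enzyme, next at 14.9. The free cytosolic genes had a median of 4.63, the multi-synthetase complex 2.33 and the mitochondrial genes 1.75 CPM per kilobase. Pars2 was in the middle of the order, at rank 23 of 40, with 2.74 CPM per kilobase in the controls and 1.34 after depletion. Cars2 was lowest, at 0.12 CPM per kilobase in the controls. These lengths come from the annotation and not from the CAGE-corrected transcripts on which the counts were made.

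**Figure D5:**
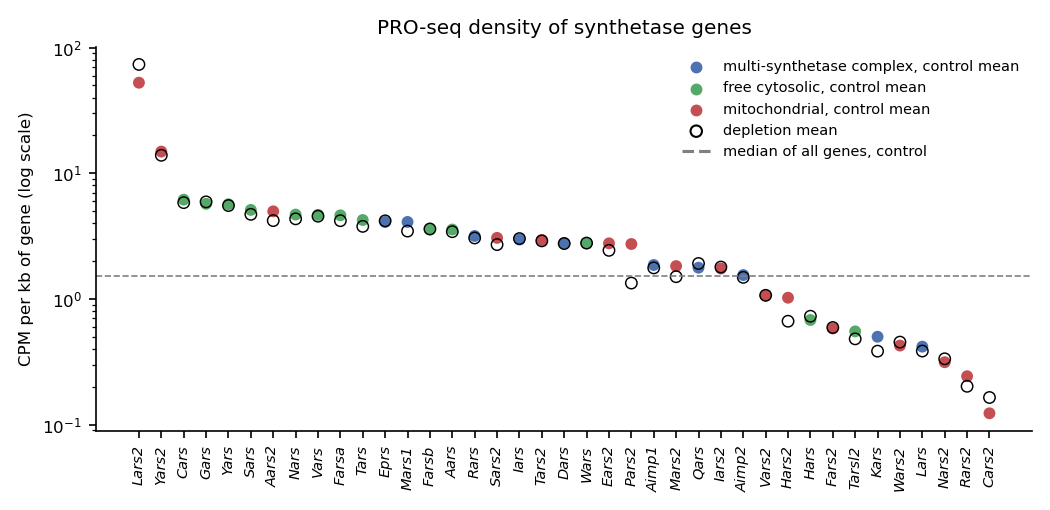
PRO-seq density of 39 of the 40 genes in CPM per kilobase of annotated gene, on a log scale, ordered by the control mean (filled, coloured by group), with the depletion mean as open circles and the control median of all genes as a dashed line. Lars2 stands at 52.6 in the controls, and Pars2 moves from 2.74 to 1.34.

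At 12 of the 40 genes another gene in the table starts on the other strand within 1000 bases, so that a pair shares its start region. Hars and Hars2 form such a pair themselves, with starts 197 bases apart, and had log2 fold changes of 0.11 and -0.60. Lyrm4, which starts 114 bases from Fars2 and encodes a factor of mitochondrial iron-sulfur cluster assembly, rose by a log2 fold change of 0.29 ± 0.08 (adjusted p = 0.0369), and Fars2 was at 0.02. It had 321 and 325 counts without IAA and 662 and 647 with it, with the groups apart. No other gene passed the test in the 10 distinct pairs in which the neighbour was tested. These included Terf2ip, which starts 75 bases from Kars and was at -0.09 (adjusted p = 0.936). Aars overlaps Exosc6 by 1326 bases and Tarsl2 overlaps Tm2d3 by 923 bases on the same strand, and counts in these stretches cannot be assigned to one gene.

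Promoter windows of 300 bases, from 250 before to 50 after the annotated start (RefSeq, GRCm38.p6), were at hand for 30 of the 40 genes, for 34 of the 37 other genes called lower at 2-fold and for 9304 of all genes tested. A gene was counted where any of its windows held a word on either strand. Among words of 8 bases, the one most over-represented in the 34 called genes, relative to all promoters, was ACCATAGA (other strand TCTATGGT). It was in 8 of the 34 (23.5%), in 82 of the 9304 (0.881%) and in 0 of the 30 synthetase promoters. The next 5 words by the same measure included CCATAGAG and CATAGAGA, which overlap it, and CCGCTCTA and CGCTCTAG, which overlap each other, and no synthetase promoter held any of these 4. The word TCTAGCCA (other strand TGGCTAGA) begins with TCTAG, the bases that end CGCTCTAG, and so overlaps that word too. It was in 7 of the 34 (20.6%), in 106 of the 9304 (1.14%) and in the windows of Vars2 and Sars2, the mitochondrial valyl and seryl enzymes.

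Neither gene was called, with log2 fold changes of 0.01 ± 0.19 for Vars2 and -0.18 ± 0.12 for Sars2. Their stretches are shown beside those of Rpl10 and Xrn1, both called lower at 2-fold, to let the words be compared, with the words in capitals and each written 5′ to 3′ along its gene. They lie at chr17:35667647-35667694 on the minus strand for Vars2, chr7:28741818-28741865 on the plus strand for Sars2, chrX:74270774-74270822 on the plus strand for Rpl10 and chr9:95954726-95954774 on the plus strand for Xrn1.
Vars2: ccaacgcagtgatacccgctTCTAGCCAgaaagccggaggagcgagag
Sars2: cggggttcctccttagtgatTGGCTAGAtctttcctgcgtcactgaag
Rpl10: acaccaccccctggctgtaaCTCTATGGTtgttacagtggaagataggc
Xrn1: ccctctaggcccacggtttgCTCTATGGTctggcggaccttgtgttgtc
In Rpl10 and Xrn1 the capitals join 2 overlapping words, ACCATAGA and CCATAGAG, read on the other strand. In Vars2 and Sars2 they mark TCTAGCCA, and no called gene with that word is shown. The first capital base was 22 bases before the annotated start in Rpl10 and 14 before it in Xrn1. It was 82 bases before the start in Vars2 and 130 in Sars2, but these distances belong to a different word. The words were found in these called genes themselves, so their share there is a description only. Pars2, Cars, Hars, Hars2, Lars, Nars, Rars, Vars and Wars had no entry.

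Genes that work with the synthetases were read from a separate list of 18. The list held Eef1e1, a further subunit of the multi-synthetase complex, and editing and deacylation enzymes. It also held the mitochondrial amidotransferase that makes glutaminyl-tRNA, the selenocysteine pathway, and factors of tRNA end addition, export and delivery. Of the 18 genes, 16 were tested and 0 passed at an adjusted p under 0.05 in either direction (edgeR), with 2 at an unadjusted p under 0.05. Over all genes tested 2.51% were called in either direction and 16.2% had an unadjusted p under 0.05, so both counts were near the background. Their median log2 fold change was -0.06. The 2 were Trnt1, which adds the CCA end of tRNA, at -0.36 ± 0.13 (adjusted p = 0.172), and Eef1a1, which carries charged tRNA to the ribosome, at -0.11 ± 0.05 (adjusted p = 0.234). Of 20 genes of the integrated stress response, the pathway that uncharged tRNA can set off through Gcn2, 18 were tested and 0 passed, with 3 at an unadjusted p under 0.05, beside the same shares of all genes. Their median was -0.08, with 14 of 18 below 0 (50.6% of all genes were below 0). Those 3 were Slc7a5, Mthfd2 and Shmt2, at -0.17, -0.22 and -0.31. Both depletion libraries lay below both controls at 7 of the 18 and above them at 2, Ddit3 and Atf3. Among all genes tested these arrangements were found at 22.9% and 23.4%. Atf4, the transcription factor at the centre of the pathway, was at -0.01 ± 0.06 (edgeR, adjusted p = 0.964).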

How the data were processed

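PRO-seq, a nuclear run-on assay that records the 3′ end of each nascent RNA, was performed on 2 control and 2 depletion libraries. The authors separated the unique molecular identifiers, trimmed adapters with cutadapt 1.18, mapped reads to mm10 with Bowtie 1.2.2, kept only reads with a single best position, collapsed them by identifier and deposited strand-aware counts per gene over transcripts with CAGE-corrected starts. The deposited counts are whole numbers and are not normalized. The authors also deposited a DESeq2 comparison, from which only the mean normalized signal was used here, to recover its size factors. Its fold changes and p-values were left unused. Drosophila cells had been added to each sample as a spike-in, and their reads were not used here.

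Genes were filtered with filterByExpr (minimum count 10, minimum total 15), scaled with TMM and tested with edgeR 4.0.16 (quasi-likelihood, two-sided, condition only) in R 4.3.3, with Benjamini-Hochberg adjustment over 11853 genes. The procedure was also run on simulated counts with known changes, with the same spread set for every gene. That check cannot speak for genes whose replicates lie as far apart as the controls of Lars2. Libraries held 3298864 to 6045216 counts. Intervals of 95% come from the fit. CPM values are counts scaled to 1000000 per TMM-adjusted library, and gene lengths are GENCODE M21 spans. BLAST 2.17.0 placed 1 exon in the genome. The synthetase genes and all other lists were chosen with earlier results of these data known. The genes described in full were Pars2, every member called, and the 3 largest falls and 3 largest rises among the others. Aars2 and Mars1 were added after their values were seen. Deviations of same-numbered replicates from their group means correlated with r = 0.03 across 11853 genes, and the numbers were not taken to pair the libraries. Count noise lowers such a correlation, so it cannot decide whether they are paired, and a fit with the number as a block is given below. Alternatives changed the scaling, the test (DESeq2 1.42.0, limma-voom 3.58.1), the filter, the block, the libraries and a gene length correction. Values of 1 synthetase gene are counted in the totals but not reported here.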

Additional observations from a re-analysis of the deposited data

How the results depend on the processing

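The synthetase median of -0.05 was -0.086 with library totals (all genes -0.036) and -0.15 with the size factors recovered from the deposited table, which moved the median of all genes to -0.11. Leaving out 1 library gave -0.092 to -0.0017. The count lower at 2-fold was 0 with DESeq2, 0 where genes under a mean count of 100 were dropped (30 synthetase genes tested, Pars2 not among them) and 0 with the length correction, and 0 to 1 with 1 library left out. Without a fold threshold the count lower was 3 with the recovered factors (Aars2, Mars1 and Pars2), 0 with DESeq2, 0 where genes under a mean count of 100 were dropped, and 0 to 2 with 1 library left out. The count higher was 0 with library totals, DESeq2, the same stricter filter and the length correction, and 0 to 1 with 1 library left out. The causes were not tested. The count higher at 2-fold was 0 in all 13 alternatives. With 1 library left out Kars ran from -0.92 to 0.52, turning without control replicate 2, and Hars from -0.016 to 0.23, turning when control replicate 2 or depletion replicate 1 was dropped. With the replicate number as a block, Pars2 was at -1.03 (adjusted p = 0.00131), Lars2 at 0.54 and the synthetase median at -0.05, and no synthetase gene gained or lost a call, although over all genes the calls without a fold threshold went from 166 to 300 lower and from 132 to 366 higher.

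Over all genes, calls lower and higher without a fold threshold numbered 698 and 49 with the recovered factors, 61 and 14 with DESeq2, 199 and 64 with library totals and 180 and 52 with the length correction, and 75 to 226 and 21 to 271 with 1 library left out. Genes lower at 2-fold numbered 57 with the recovered factors, 28 with DESeq2 and 8 with the stricter filter, beside 38. With 1 library left out, 1 to 8 genes were higher at 2-fold. Depth limits the low genes: Pars2, Hars2, Kars and Cars2 had fewer than 50 counts in each library.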
